A study of Canis lupus familiaris with 4 samples.

Results

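The genes described here are 35 components, regulators and targets of the NF-kappaB pathway, together with inflammatory cytokines but without chemokines, in MDCKII cells, an epithelial cell line established from dog kidney. They were found by gene symbol in the platform annotation. Of the 35 members, 33 were represented on the array, by 59 probe sets, among 15115 genes measured in all, and TRAF1 and TRAF6 were not analysed here. The 4 arrays hold 1 sample each of cells labelled HIF1A KD (knockdown) in hypoxia, HIF1A WT in hypoxia, HIF1A KD in normoxia and HIF1A WT in normoxia. All cells spent 24 h in normoxia and then another 24 h in the labelled oxygen condition, and the study asked how the response to low oxygen depends on HIF1A, which encodes the alpha subunit of hypoxia-inducible factor. The sources used here do not say how the knockdown was made, how many clones it involved or which oxygen level was used.

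NF-kappaB is a family of dimeric transcription factors held in the cytoplasm by IkappaB proteins. Signals from cytokine receptors and Toll-like receptors activate the IKK kinase complex, which marks IkappaB for degradation and frees the dimer to enter the nucleus. Its targets include the genes of its own inhibitors, survival factors, cytokines and adhesion molecules, and in kidney epithelium the pathway is known for inflammatory signalling during injury. The activity of the pathway is set largely by protein degradation and nuclear entry, which mRNA arrays do not measure.

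No group has a replicate, so differences between 2 arrays cannot be set against a spread within groups, and precision is limited by there being 4 arrays. HIF1A itself read 625 in the array labelled KD hypoxia, 675 in WT hypoxia, 3435 in KD normoxia and 3651 in WT normoxia. It thus followed the oxygen label and hardly differed by the knockdown label, with KD at 0.926 of WT in hypoxia and 0.941 in normoxia. The directions given here are those of the labels. Of the epithelial markers EPCAM, KRT8, KRT18, TJP1, CLDN1 and CDH16 were above background, while CDH1 was at most 41.2 and PAX2 and PAX8 were lower still. The summed intensity of the 9 epithelial markers was 31927 in KD hypoxia, 31374 in WT hypoxia, 29644 in KD normoxia and 29413 in WT normoxia. That of 8 leukocyte markers was 431, 377, 448 and 389 in the same order, with CD3E, ITGAM, CD79A and LYZ below background in every array. CD68 stood at 177 to 250 in all 4 arrays, PTPRC reached the floor in KD hypoxia (61.6) and WT normoxia (69.3), CD14 in KD normoxia (69.8) and WT normoxia (54.0), and CSF1R in WT hypoxia (47.3). Of 6 fibroblast markers PDGFRA alone reached the floor (49.0 to 60.45), and of 5 endothelial markers CDH5 (104 to 178) and KDR (47.3 to 66.1). In RNA from whole cultures, fewer cells of a type and less RNA per cell cannot be told apart.

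The floor between signal and background was set at the median of all values, an intensity of 46.3. Of the 33 members, 13 reached the floor in all 4 arrays and 6 others in some of them, 19 together. The other 14 stayed below it in every array, at 2.63 to 41.6, so no difference is given for them. These were IKBKG, the regulatory subunit of the IKK complex, the receptors IL1R1, TLR2 and TLR4, the receptor-associated kinase IRAK1, TNFAIP2, and TNFAIP3, a deubiquitinase that ends NF-kappaB signalling. They also included the cytokines IL6, IL1A, IL1B, IL18 and LIF, the adhesion molecule VCAM1 and LCN2, an iron-scavenging protein of injured kidney tubules. TNFAIP3 came closest to the floor, with 27.3 in KD hypoxia, 26.9 in WT hypoxia, 32.0 in KD normoxia and 41.6 in WT normoxia. Of the 7 cytokines in the list, TNF and CSF2 alone thus gave a signal above background.

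**Figure D1:**
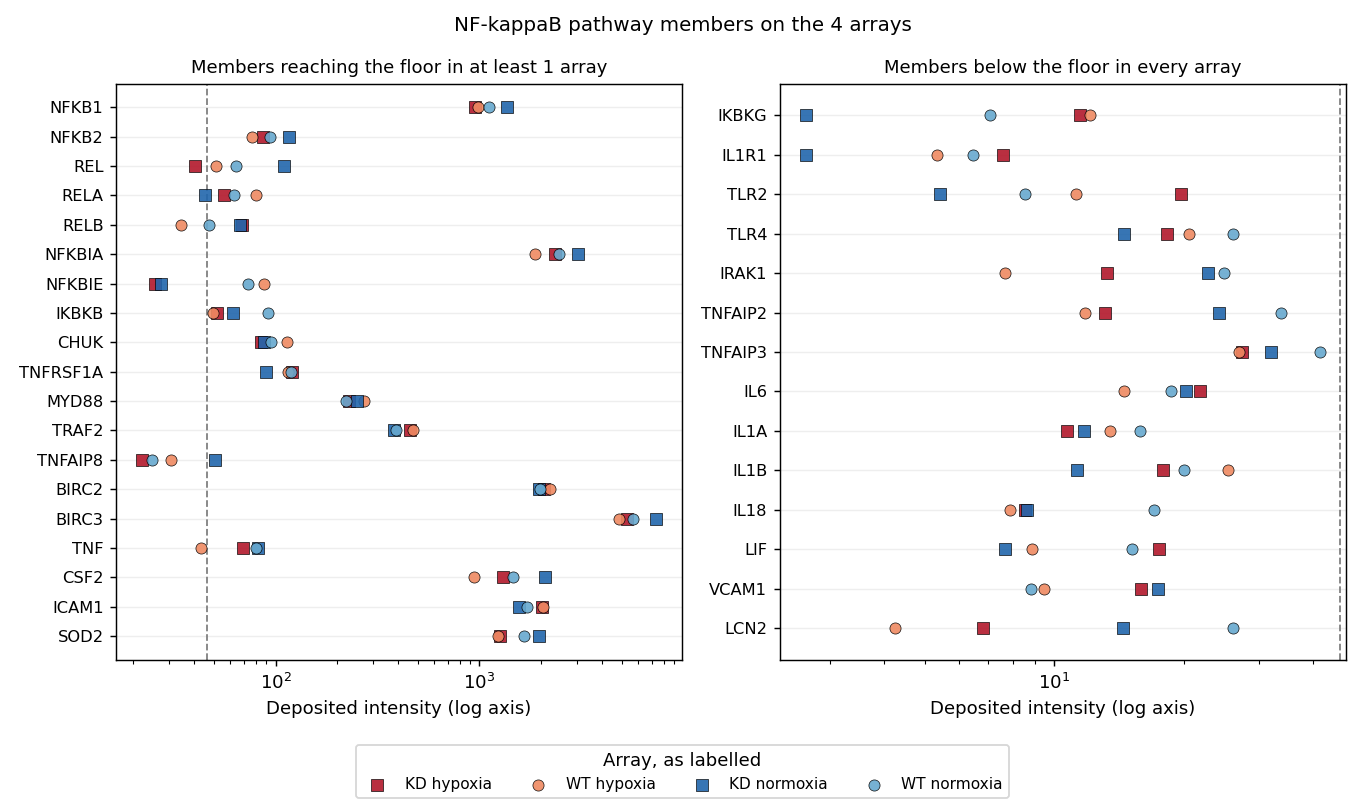
Deposited intensity (log axis) of the 33 measured members on the 4 arrays, with 1 point per array and the floor of 46.3 as a dashed line. The left panel holds the 19 members that reached the floor, and the right panel the 14 that did not. CSF2, SOD2, NFKBIA and BIRC3 had both hypoxia arrays (red and orange) left of both normoxia arrays (blues). Intensities of different probe sets are not comparable with each other.

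Among the subunits, NFKB1 encodes the p105 precursor of p50. Its main probe set read 952 in KD hypoxia, 986 in WT hypoxia, 1369 in KD normoxia and 1108 in WT normoxia. Both hypoxia arrays were below both normoxia arrays. On the scale of log2(intensity + 16), which is used for every difference here and understates those of dim genes, hypoxia minus normoxia was -0.52 in KD cells and -0.17 in WT cells. NFKB2, the p100 precursor of the non-canonical subunit p52, read 86.9 in KD hypoxia, 76.8 in WT hypoxia, 117 in KD normoxia and 93.6 in WT normoxia, again with both hypoxia arrays lowest. REL, the c-Rel subunit best known from lymphocytes, read 40.1 in KD hypoxia, 51.3 in WT hypoxia, 110 in KD normoxia and 64.1 in WT normoxia. The first of these is below the floor, so its difference of -1.17 in the KD pair is the arithmetic result and not a measured size. RELA, the p65 subunit of the canonical dimer, read 56.1 in KD hypoxia, 80.6 in WT hypoxia, 45.3 in KD normoxia and 62.9 in WT normoxia. Both KD arrays were below both WT arrays, and the hypoxia array was the higher one within each genotype. RELB, the partner of p52, read 68.3 in KD hypoxia, 34.4 in WT hypoxia, 66.8 in KD normoxia and 47.3 in WT normoxia, so it too separated by the genotype label and not by oxygen, with the KD arrays higher.

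NFKBIA encodes IkappaB-alpha, the inhibitor that NF-kappaB itself induces. Its intensity was 2356 in KD hypoxia, 1881 in WT hypoxia, 3029 in KD normoxia and 2456 in WT normoxia. The hypoxia arrays were lower in both genotypes, by -0.36 in KD cells and -0.38 in WT cells, and the KD arrays were higher in both oxygen conditions, by 0.32 in hypoxia and 0.30 in normoxia. NFKBIE, the related inhibitor IkappaB-epsilon, read 25.6 in KD hypoxia, 88.1 in WT hypoxia, 27.3 in KD normoxia and 72.9 in WT normoxia. Both KD arrays were below the floor, and both WT arrays were above it. Of the kinase subunits, IKBKB (IKK-beta) read 51.8 in KD hypoxia, 49.5 in WT hypoxia, 62.0 in KD normoxia and 91.8 in WT normoxia, and CHUK (IKK-alpha) read 85.2, 114, 87.5 and 95.2 in the same order. IKBKB stood higher in the WT normoxia array than in the other 3, whereas CHUK was highest in WT hypoxia.

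By the probe set used for each gene, receptors and adaptors showed small differences. A second MYD88 probe set, given further below, differed more. The TNF receptor TNFRSF1A read 120 in KD hypoxia, 115 in WT hypoxia, 89.9 in KD normoxia and 119 in WT normoxia, so the KD normoxia array alone stood low. MYD88, the adaptor of Toll-like and IL-1 receptors, read 228 in KD hypoxia, 272 in WT hypoxia, 250 in KD normoxia and 221 in WT normoxia. TRAF2, an adaptor of TNF receptors, read 456 in KD hypoxia, 471 in WT hypoxia, 382 in KD normoxia and 391 in WT normoxia, with both hypoxia arrays above both normoxia arrays.

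Among survival genes, BIRC3, the cellular inhibitor of apoptosis cIAP2, read 5282 in KD hypoxia, 4814 in WT hypoxia, 7340 in KD normoxia and 5643 in WT normoxia. Its relative BIRC2 (cIAP1) read 2081 in KD hypoxia, 2226 in WT hypoxia, 1950 in KD normoxia and 1974 in WT normoxia. The hypoxia arrays were lower for BIRC3 in both genotypes, while those of BIRC2 were higher by 0.09 in KD and 0.17 in WT cells (limma hypoxia term 0.13, adjusted p = 0.313, past no threshold). TNFAIP8, a TNF-inducible regulator of apoptosis, read 22.1 in KD hypoxia, 30.7 in WT hypoxia, 50.6 in KD normoxia and 24.9 in WT normoxia. It reached the floor through KD normoxia alone, so that array had to be its highest and its differences have no measured size.

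Of the cytokines, CSF2 (GM-CSF), which drives growth and activation of myeloid cells, was above the floor in every array. It read 1306 in KD hypoxia, 938 in WT hypoxia, 2086 in KD normoxia and 1453 in WT normoxia. The hypoxia arrays stood at 0.626 of normoxia in KD cells and 0.645 in WT cells, and the KD arrays at 1.39 times WT in hypoxia and 1.44 times WT in normoxia. TNF read 69.3 in KD hypoxia, 43.1 in WT hypoxia, 82.3 in KD normoxia and 80.4 in WT normoxia. Its WT hypoxia value is below the floor, and its other probe sets were below the floor in every array.

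Of the effector targets, SOD2, the mitochondrial superoxide dismutase, read 1255 in KD hypoxia, 1235 in WT hypoxia, 1959 in KD normoxia and 1648 in WT normoxia. ICAM1, the leukocyte adhesion molecule, read 2021 in KD hypoxia, 2052 in WT hypoxia, 1556 in KD normoxia and 1707 in WT normoxia. These 2 textbook NF-kappaB targets lay in opposite order, SOD2 lower and ICAM1 higher in both hypoxia arrays.

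In the test that the 4 arrays allow, 4 of the 19 members fell and 1 rose with labelled hypoxia. This test is a limma model that adds a genotype and an oxygen term, fitted to all arrays together, with Benjamini-Hochberg adjustment over 9834 genes. CSF2 fell by 0.65 (SE 0.08, limma adjusted p = 0.00138), SOD2 by 0.52 (SE 0.09, limma adjusted p = 0.00591), NFKBIA by 0.37 (SE 0.07, limma adjusted p = 0.0108) and BIRC3 by 0.35 (SE 0.07, limma adjusted p = 0.0121). ICAM1 rose by 0.32 (SE 0.08, limma adjusted p = 0.0326). All 5 were above the floor in all 4 arrays. Among all genes 4.17% fell and 4.72% rose, against 21.1% and 5.26% of the 19 members that reached the floor, or 12.1% and 3.03% of the 33 measured. The members were chosen with earlier results of these data known, so these shares are descriptive and no test of enrichment. NFKB1 was at -0.34 (limma adjusted p = 0.0728), REL at -0.71 (limma adjusted p = 0.104) and TRAF2 at 0.25 (limma adjusted p = 0.159), past no threshold. The model has 1 residual degree of freedom and takes 8.10 more from other genes through an intensity trend. Without that trend no member was called (the limma counts at an unadjusted p under 0.05 were then 7 lower and 2 higher), and without the floor only CSF2 was. In the main fit an unadjusted limma p under 0.05 was found for 10 of the 19 members and 2335 of all 9834 genes. The number for all genes without the trend is not given here.

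**Figure D2:**
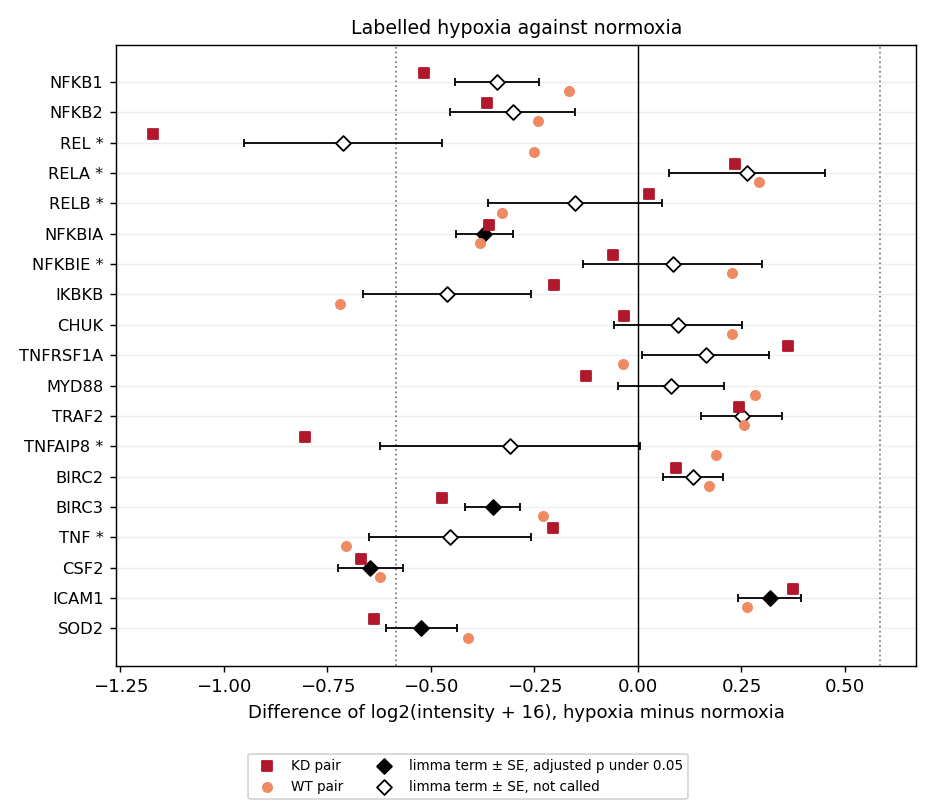
Hypoxia minus normoxia in log2(intensity + 16) for the 19 members that reached the floor, as the difference in KD cells (squares), that in WT cells (circles) and the limma hypoxia term with its SE (diamonds, filled where the adjusted p was under 0.05). Dotted lines mark 1.5-fold, and an asterisk marks members with an array below the floor. The filled diamonds of CSF2, SOD2, NFKBIA and BIRC3 lie left of 0 and that of ICAM1 right of it.

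By value, both hypoxia arrays lay below both normoxia arrays for 9 of the 19 members, against 19.3% of all genes. These were NFKB1, NFKB2, REL, NFKBIA, IKBKB, BIRC3, TNF, CSF2 and SOD2. Both lay above for TRAF2, BIRC2 and ICAM1, which are 3 of 19, against 22.8% of all genes. These counts use 1 probe set per gene. Of further probe sets above the floor in all 4 arrays, that of SOD2 kept the pattern. Those of NFKB1, BIRC3, TRAF2, BIRC2 and ICAM1 did not. The median hypoxia term was -0.30 over the 19 members and 0.01 over all genes. These comparisons too are descriptive, since earlier results were known when the members were chosen. In the KD pair 4 members were at least 1.5-fold lower (4.05% of all genes), namely REL, TNFAIP8, CSF2 and SOD2, and 0 were 1.5-fold higher (3.41%). In the WT pair 3 members were at least 1.5-fold lower (2.88% of all genes), namely IKBKB, TNF and CSF2, and 0 were 1.5-fold higher (3.34%). CSF2 was the 1 member past 1.5-fold in both pairs, which share no array. TNFAIP8 is in the KD count through the array that carried it over the floor, so its place there is set by that choice. Of these members, REL in the KD hypoxia array, TNF in the WT hypoxia array and TNFAIP8 in both KD and WT hypoxia arrays lay below the floor.

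With labelled KD, 2 members rose and 1 fell in the same limma model, against 2.94% and 2.43% of all genes. CSF2 rose by 0.49 (SE 0.08, limma adjusted p = 0.0117) and NFKBIA by 0.31 (SE 0.07, limma adjusted p = 0.0355). NFKBIE fell by 1.18 (SE 0.22, limma adjusted p = 0.0187). NFKBIE reached the floor only through its WT arrays, the group where it is high, and how large its difference is was not measured. It is the 1 member counted as falling in this term. With the floor at the 75th percentile 0 of 9 members fell, but NFKBIE was then not among those tested. BIRC3 was at 0.26 (limma adjusted p = 0.0588), RELB at 0.56 (limma adjusted p = 0.155) and RELA at -0.39 (limma adjusted p = 0.261), past no threshold. No member was called in this term without the intensity trend or without the floor (at an unadjusted limma p under 0.05 there were 3 higher and 2 lower without the trend, and 4 higher and 1 lower without the floor). In the main fit such a p was found for 5 of the 19 members and 2196 of all 9834 genes, so these counts do not set the members apart. If the arrays labelled KD normoxia and WT hypoxia changed places, this term and the hypoxia term would trade values.

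**Figure D3:**
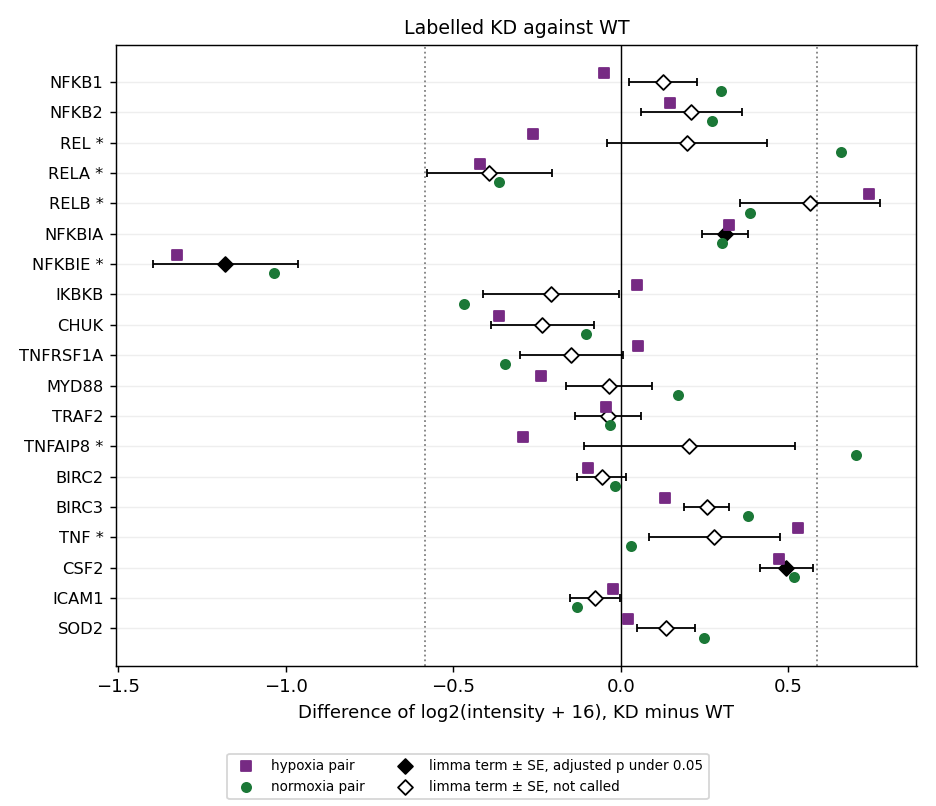
KD minus WT in log2(intensity + 16) for the same 19 members, as the difference in hypoxia (squares), that in normoxia (circles) and the limma genotype term with its SE (diamonds, filled where the adjusted p was under 0.05). Dotted lines mark 1.5-fold, and an asterisk marks members with an array below the floor. CSF2 and NFKBIA lie right of 0 and NFKBIE left of it in both pairs, while REL and TNFAIP8 lie on opposite sides of 0 in the 2 pairs.

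In hypoxia RELB was at least 1.5-fold higher in KD than in WT cells (1 of 19 members, 2.74% of all genes) and NFKBIE at least 1.5-fold lower (1 of 19, 2.59%). The WT hypoxia value of RELB (34.4) is below the floor, so how large its difference is was not measured. In normoxia REL and TNFAIP8 were at least 1.5-fold higher (2 of 19, 3.76%) and NFKBIE at least 1.5-fold lower (1 of 19, 2.82%). The floor itself fixes the direction of TNFAIP8 in normoxia and of NFKBIE in both conditions, since each passed only through the arrays where it was high. Both KD arrays lay above both WT arrays for RELB alone (1 of 19 members, 19.0% of all genes), and below them for RELA, NFKBIE and CHUK (3 of 19, 22.2% of all genes). The shares of members whose genotypes did not overlap were thus no higher than those of all genes.

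Of the members called, CSF2, NFKBIA, BIRC3 and SOD2 shared 1 order of the arrays, with KD normoxia highest, then WT normoxia, then KD hypoxia and WT hypoxia lowest. NFKB2 and TNF had the same order, which makes 6 of 19 members, against 6.79% of all genes. This order was picked out after the values were seen. The response to labelled hypoxia of WT cells, less the response of KD cells, was 0.05 for CSF2, -0.02 for NFKBIA, 0.25 for BIRC3 and 0.23 for SOD2. This value, WT less KD, was positive and at least 1.5-fold in 2 members, REL (0.92) and TNFAIP8 (0.99), against 4.11% of all genes. For both, hypoxia minus normoxia was further below 0 in KD cells, with REL at -1.17 in KD and -0.25 in WT cells and TNFAIP8 at -0.80 in KD and 0.19 in WT cells. It was negative and at least 1.5-fold in 0 members, against 3.44% of all genes. REL and TNFAIP8 have array values below the floor. TNFAIP8 reached the floor through KD normoxia alone, and a high value there raises WT less KD, so the floor favoured its place in this count. With 1 array per group the responses were not tested against each other.

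**Figure D4:**
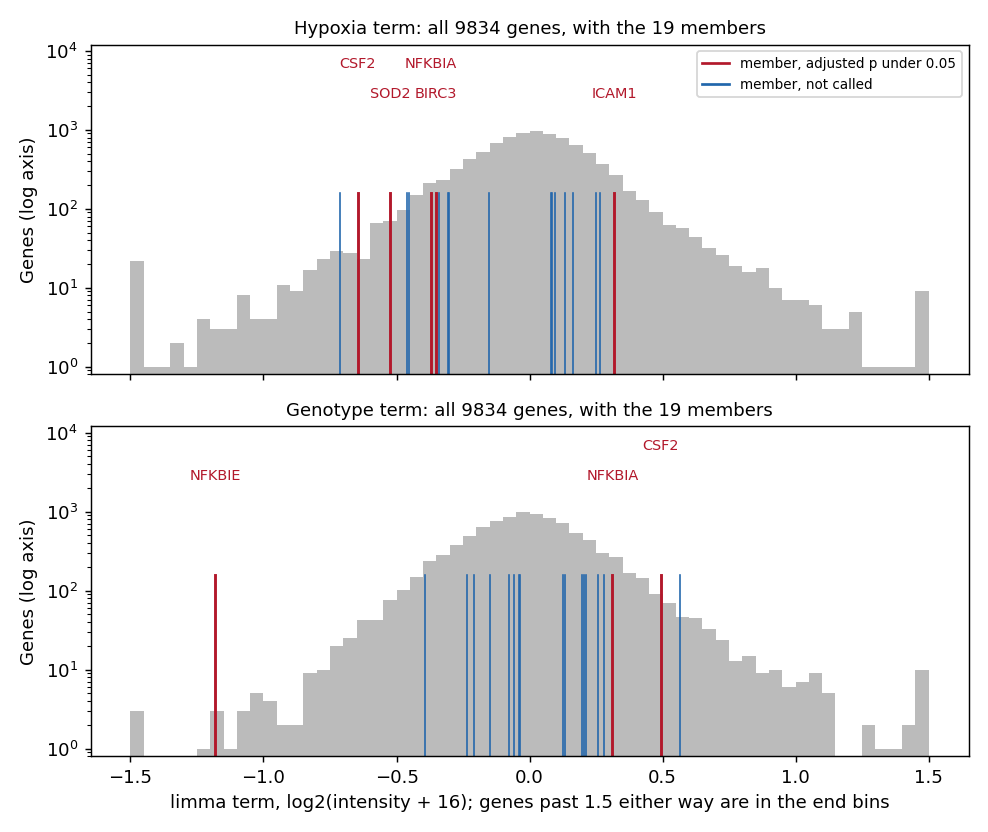
Distribution of the limma terms over all 9834 genes (grey, log axis of gene counts) for hypoxia (top) and genotype (bottom), with each of the 19 members as a vertical line, red where its adjusted p was under 0.05. In the hypoxia panel 4 of the 5 red lines lie left of 0. In the genotype panel NFKBIE stands at -1.18, with CSF2 at 0.49 and NFKBIA at 0.31.

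For 7 members more than 1 probe set lay above the floor in all 4 arrays, so the same gene could be read again. SOD2 gave the same result, with a second probe set at 470 in KD hypoxia, 377 in WT hypoxia, 641 in KD normoxia and 618 in WT normoxia. When every probe set was fitted on its own, both SOD2 probe sets fell with labelled hypoxia, by 0.52 (limma adjusted p = 0.00131) and 0.56 (limma adjusted p = 0.00374). The call on ICAM1 was not shared by its second probe set, which read 79.3 in KD hypoxia, 78.1 in WT hypoxia, 96.2 in KD normoxia and 76.6 in WT normoxia (hypoxia term -0.11, limma adjusted p = 0.762). The other BIRC3 probe sets had hypoxia terms of 0.02 and -0.28, both past no threshold. A second BIRC2 probe set read 455 in KD hypoxia, 502 in WT hypoxia, 468 in KD normoxia and 448 in WT normoxia, with differences by oxygen of -0.04 in KD and 0.16 in WT cells. CSF2 and NFKBIA have a single probe set each.

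NFKB1 differed between its probe sets in both terms. Fitted on its own, the main probe set fell by 0.34 with labelled hypoxia (limma adjusted p = 0.0461). The others were at -0.12 (limma adjusted p = 0.695) and -0.11 (limma adjusted p = 0.592). Neither of these had both hypoxia arrays below both normoxia arrays. The genotype term differed as well. A further NFKB1 probe set read 328 in KD hypoxia, 482 in WT hypoxia, 337 in KD normoxia and 554 in WT normoxia, so that both KD arrays were below both WT arrays. Fitted on its own it fell by 0.61 with labelled KD (limma adjusted p = 0.00316), while the main NFKB1 probe set was at 0.12 (limma adjusted p = 0.502) and another at -0.10. A second TRAF2 probe set was likewise lower in both KD arrays, with 101 and 97.7 in KD hypoxia and normoxia, against 136 in both WT arrays (genotype term -0.40, limma adjusted p = 0.0931). Its hypoxia term was 0.02 (limma adjusted p = 0.944). A second MYD88 probe set read 70.7 in KD hypoxia, against 118 to 142 in the other 3 arrays.

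**Figure D5:**
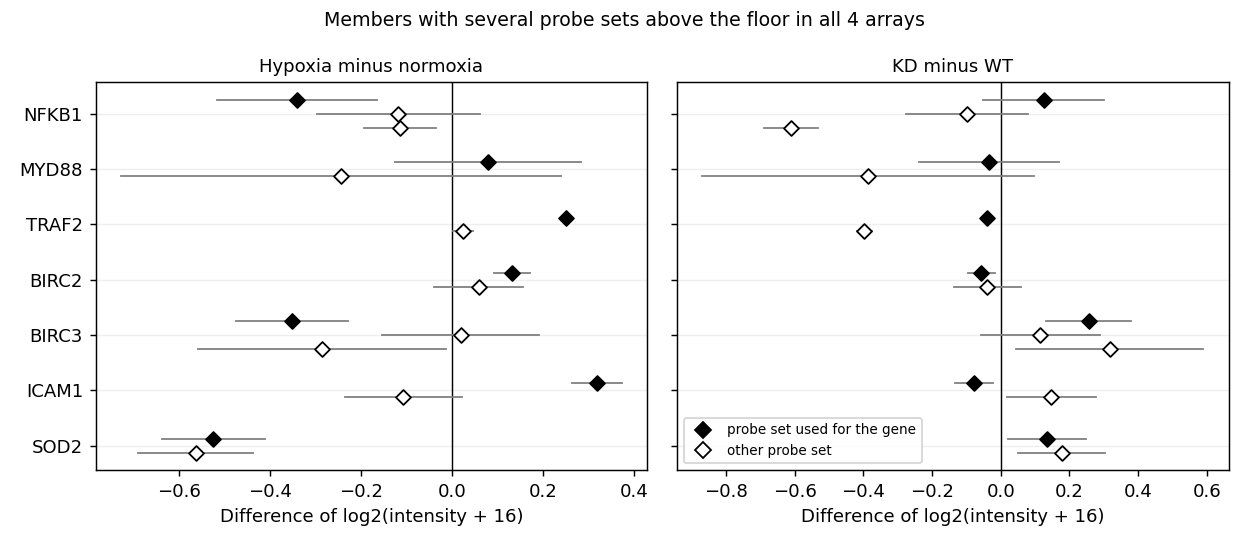
Mean difference in log2(intensity + 16) for each probe set of the 7 members that had more than 1 above the floor in all 4 arrays (filled, the probe set used for the gene; open, the others), with a line from the value in 1 pair of arrays to that in the other. Hypoxia minus normoxia is on the left and KD minus WT on the right. Both SOD2 probe sets lie left of 0 for hypoxia, the ICAM1 probe sets lie on either side of 0, and 1 NFKB1 probe set stands at -0.61 for KD minus WT.

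Other genes of the pathway were read from 2 further lists. Of 46 other signalling genes 44 were measured and 32 reached the floor. In the hypoxia term 4 of these fell and 1 rose, against 4.17% and 4.72% of all genes. MALT1, a paracaspase that links antigen and G protein-coupled receptors to IKK, fell by 0.84 (limma adjusted p = 0.00252), PELI1, a ubiquitin ligase of Toll-like receptor signalling, by 0.72 (limma adjusted p = 0.0173), CD40, a TNF family receptor, by 0.49 (limma adjusted p = 0.0107) and TAB2, which brings the kinase TAK1 to ubiquitin chains, by 0.37 (limma adjusted p = 0.0357). RIPK2, the kinase downstream of NOD receptors, rose by 0.31 (limma adjusted p = 0.0379). MALT1 read 138 in both hypoxia arrays, against 273 in KD normoxia and 249 in WT normoxia. In the genotype term 0 of the 32 were called by limma, against 2.94% of all genes that rose and 2.43% that fell. An unadjusted limma p under 0.05 was found for 11 of the 32, against 2196 of all 9834 genes. The median hypoxia term of these 32 genes was -0.04. With the median over the probe sets of each gene, 27 reached the floor, of which 1 fell and 3 rose with labelled hypoxia. Of all 8452 genes in that fit, 438 fell and 445 rose.

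Of 30 other target genes 27 were measured and 19 reached the floor, with a median hypoxia term of 0.02. Here 2 fell and 2 rose with labelled hypoxia, against 4.17% and 4.72% of all genes. BCL2A1, a survival protein of the BCL2 family, fell by 0.66 (limma adjusted p = 0.00114), with 3556 in KD hypoxia, 2480 in WT hypoxia, 5085 in KD normoxia and 4320 in WT normoxia, the array order of CSF2. EHF, an epithelial ETS factor, fell by 0.46 (limma adjusted p = 0.0113). GADD45B, a stress-inducible inhibitor of JNK signalling, rose by 0.46 (limma adjusted p = 0.00179) and IER3, an immediate early gene of cell survival, by 0.35 (limma adjusted p = 0.0151). In the genotype term BCL2A1 rose by 0.38 (limma adjusted p = 0.0257), GADD45B by 0.39 (limma adjusted p = 0.00955), and EHF fell by 0.49 (limma adjusted p = 0.0158). Among all genes 2.94% rose and 2.43% fell in that term. Without the intensity trend 0 genes of either list were called by limma.

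Of the epithelial markers above the floor, EPCAM rose by 0.23 (limma adjusted p = 0.0134) and CLDN1 by 0.57 (limma adjusted p = 0.00867) with labelled hypoxia, and TJP1 fell by 0.26 (limma adjusted p = 0.0358). TJP1 also rose by 0.31 with labelled KD (limma adjusted p = 0.0250). The part of these markers in the results on NF-kappaB genes was not tested.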

How the data were processed

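The authors deposited 1 intensity per probe set and array on a linear scale. Per the labels' protocols, 100 ng of total RNA gave biotinylated cRNA with an Affymetrix kit. The sources used here do not give the software, background correction or scaling. Median intensities were 45.6 to 47.1 per array. Of 42924 probe sets, 29254 had 1 gene symbol in the platform annotation, 439 several and 13231 none. By gene ID 27680 were found in RefSeq's gene table (German Shepherd assembly UU_Cfam_GSD), and 0 symbols changed.

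Values were turned to log2(intensity + 16). The probe set with the highest mean stood for its gene, and 9834 genes whose highest value reached the median of all values were tested. limma 3.58.1 (R 4.3.3, Python 3.11.15) fitted genotype and oxygen as additive terms, two-sided, with Benjamini-Hochberg adjustment at 0.05. Its p-values rest on how alike the 2 pairs of differences were, not on the spread between cultures. The gene itself gave 1 degree of freedom for this, and other genes, through the intensity trend, gave 8.10. With quantile normalization the spread was taken from other genes alone. In data simulated on 9834 genes, the hypoxia term called 99 of 100 genes with 2-fold changes and 19 of 9634 without. The simulated noise was independent between arrays, with the same spread for all genes of like intensity, taken from these same arrays. It held no genotype effect and no variation between cultures, so it does not give the error rates of the real data. Changes below 2-fold, such as those of the members called for hypoxia, were not simulated. Alternatives were 2 scalings, 2 treatments of probe sets, 2 floors, 2 pseudocounts, a 2-fold threshold and a prior without trend. Members and lists were chosen with earlier results of these data known. Every member could be named, and of the other lists the genes called by limma or at least 2-fold apart.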

Additional observations from a re-analysis of the deposited data

Results flagged for a closer look

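Of the 19 members that reached the floor, 9 had labelled differences of opposite sign, 6 in hypoxia minus normoxia between KD and WT cells and 6 in KD minus WT between hypoxia and normoxia, with 3 in both. None of these differences between groups was tested, since each group has 1 array, and small values take opposite signs easily. Values are in log2(intensity + 16).

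For hypoxia minus normoxia, TNFRSF1A was at 0.36 in KD cells and -0.0349 in WT cells, MYD88 at -0.12 in KD cells and 0.28 in WT cells, and CHUK at -0.0326 in KD cells and 0.23 in WT cells. RELB was at 0.0261 in KD cells and -0.33 in WT cells, NFKBIE at -0.0605 in KD cells and 0.23 in WT cells, and TNFAIP8 at -0.80 in KD cells and 0.19 in WT cells.

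For KD minus WT, NFKB1 was at -0.0506 in hypoxia and 0.30 in normoxia, IKBKB at 0.0489 in hypoxia and -0.47 in normoxia, TNFRSF1A at 0.0507 in hypoxia and -0.35 in normoxia, and MYD88 at -0.24 in hypoxia and 0.17 in normoxia. REL was at -0.26 in hypoxia and 0.66 in normoxia, and TNFAIP8 at -0.29 in hypoxia and 0.70 in normoxia. RELB, NFKBIE, REL and TNFAIP8 had an array below the floor, so how large their values are was not measured. A second MYD88 probe set kept the signs of both. It stood at -0.73 and 0.24 for hypoxia minus normoxia in KD and WT cells. For KD minus WT it stood at -0.87 in hypoxia and 0.10 in normoxia. The other NFKB1 probe sets differed. For KD minus WT in hypoxia and normoxia, one kept the signs, at -0.28 and 0.08. The other was below 0 in both, at -0.53 and -0.69.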

How the results depend on the processing

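The limma counts of members change with the prior. With no intensity trend 3 of 9834 genes rose and 4 fell with hypoxia, 0 were called for genotype, and 0 members were called in either term and direction, with an unadjusted limma p under 0.05 for 7 lower and 2 higher in the hypoxia term and 2 lower and 3 higher in the genotype term. Without the floor 1 of 33 members (CSF2) fell and 0 rose with hypoxia, where 38 and 39 of all 15115 genes did. For genotype 0 members and 0 genes were called. An unadjusted limma p under 0.05 was found for 8 lower and 2 higher members in the hypoxia term, and for 1 lower and 4 higher in the genotype term. For all genes that count is given for the main fit alone, at 2335 (hypoxia) and 2196 (genotype) of 9834. With the median over probe sets 0 of 18 members rose with hypoxia (445 of 8452 genes) and 2 fell with KD (365 genes). With every probe set fitted, 2 of 28 member probe sets fell with KD (1117 of 23652 probe sets). With the floor at the 75th percentile 9 members were tested, NFKBIE not among them, and 0 fell with KD (244 of 5398 genes). BIRC3 and ICAM1 were not called for hypoxia with the median over probe sets (adjusted p up to 0.686 and 0.609 over the alternatives), and CSF2 was called in 7 of 8. BIRC3 was called for genotype in 4 of 8, and NFKB1 for hypoxia in 2 of 8. The genotype term of NFKB1 was -0.61 with the median over probe sets. The scalings changed no sign among the called members.

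Counts by fold are small and moved as follows, with 1.5-fold unless stated. Counts over all genes tested are in brackets. At 2-fold, 1 of 19 members was lower in the KD oxygen pair (98 of 9834 genes) and 0 in the WT pair (56). In KD against WT, 0 were higher in hypoxia (51) and 0 in normoxia (84). A positive WT less KD response was found in 0 (86). With the floor at the 75th percentile, 9 members and 5398 genes were tested, and NFKBIE, REL, RELB and TNFAIP8 were not among them. Here 2 and 1 members were lower with hypoxia in KD and WT cells (165 and 121). Between KD and WT 0 differed either way (95 higher and 51 lower in hypoxia, 185 and 83 in normoxia). In the responses 0 differed (80 positive and 40 negative). Without the floor, 1 of 33 members was higher with hypoxia in KD cells (700 of 15115 genes) and 6 were lower in WT cells (633). A negative WT less KD response was found in 3 (1017). With a pseudocount of 64, 1 of 19 members was lower with hypoxia in WT cells (131 of 9836 genes). In KD against WT, 0 were higher in hypoxia (105) and in normoxia (181), and 0 lower in normoxia (76). A positive WT less KD response was found in 1 (119). With a pseudocount of 1, 2 of 19 members were higher in KD hypoxia than WT hypoxia (418 of 9831 genes). A negative WT less KD response was then found in 2 (515). With the median over probe sets, 2 of 18 members were lower in KD than WT in hypoxia (203 of 8452 genes) and 2 in normoxia (202). With every probe set fitted, 2 of 28 member probe sets were lower in hypoxia (821 of 23652 probe sets) and 2 in normoxia (987). The causes were not tested, apart from fewer genes at the higher floor. No paired analysis was possible because each group has 1 array and so no replicate number to pair by, although the limma model itself compares oxygen within genotype.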
